A study of Coturnix japonica with 16 samples.

Results

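The genes described here are CHKA, SBNO2, SLC41A1, SARM1 and LOC107305801, which are 5 of the 20308 genes counted in the liver of Japanese quail (Coturnix japonica). They were picked by their NCBI Gene numbers because their levels were higher at 5 mg/kg ethinylestradiol than in solvent birds, with the means at 0.5 mg/kg in between. The values that chose them are the differences between dose groups, so those differences are given below as a description with no test. The RNA came from the left lobe of the liver of 16 quail aged 12 weeks and was sequenced in 16 libraries. All 16 birds had fasted for 16 h, were kept on 8 h of light and 16 h of dark, and received 4 mL/kg of liquid by gavage into the crop once. The 6 solvent birds received corn oil alone, 5 birds received 0.5 mg of ethinylestradiol per kg of body weight in it, and 5 birds received 5 mg/kg. Ethinylestradiol is a synthetic estrogen that acts through the estrogen receptors. The sources used here do not give strain, sex or the interval between dosing and sampling.

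These genes sit in different pathways. CHKA is choline kinase alpha, which phosphorylates choline at the entry of the CDP-choline route to phosphatidylcholine, the main phospholipid of liver membranes and of secreted lipoproteins. SLC41A1 is a magnesium transporter of the plasma membrane, described in human cells as an exporter. SBNO2 is a strawberry notch homologue, known in mammals as a transcriptional coregulator that interleukin-10 and STAT3 signalling induces. SARM1 is an NAD-cleaving enzyme with a Toll/interleukin-1 receptor domain, best known for driving axon loss in mice and flies and as an adaptor that dampens Toll-like receptor signalling. LOC107305801 is a protein-coding gene with no symbol, and no role is given for it here.

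In the gene table of the assembly Coturnix japonica 2.1, CHKA lies on chromosome 5 with 2 transcripts, SBNO2 on chromosome 28 with 10, SLC41A1 on chromosome 26 with 4, and SARM1 on chromosome 19 with 1. LOC107305801 lies on chromosome Z with 1 transcript. The deposited table held as many rows for each of them. Library totals ran from 15172994 to 46192717 counts, with the deepest library being 5 mg/kg replicate 2. Mitochondrial genes took 7.03% to 14.5% and albumin, the main plasma protein of hepatocytes, 6.97% to 13.7% of a library. Levels are given as CPM, the count scaled to the effective size of its library. The 15 hepatocyte markers found in the table summed to 98939 to 198114 CPM in solvent birds, 160010 to 246208 CPM at 0.5 mg/kg and 161189 to 208636 CPM at 5 mg/kg, and none was at 0 in any bird.

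CHKA had a low level in solvent birds and its highest levels in a pair of birds at 5 mg/kg. In the 6 solvent birds the lowest level was 22.4 CPM, the median 36.4 and the highest 42.1. At 0.5 mg/kg the 5 birds, in replicate order, held 77.9, 89.4, 51.3, 48.1 and 74.7 CPM. At 5 mg/kg they held 228, 315, 71.0, 95.2 and 62.9 CPM. Every dosed bird lay above every solvent bird, and replicates 1 and 2 at 5 mg/kg stood far above the other 3. Replicate 4 still lay above all 0.5 mg/kg birds, while replicates 3 and 5 fell among them. The fitted log2 fold change against solvent was 1.03 (SE 0.36) at 0.5 mg/kg and 2.21 (SE 0.37) at 5 mg/kg. Without 5 mg/kg replicate 2 the latter was 1.77.

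SLC41A1 showed the same order of groups with a smaller change. Solvent birds held between 35.8 and 57.4 CPM, with a median of 51.0. The 0.5 mg/kg birds held 92.01, 83.8, 76.1, 66.0 and 105 CPM, and the 5 mg/kg birds 159, 308, 72.3, 115 and 107 CPM. All dosed birds lay above all solvent birds, and 4 of 5 birds at 5 mg/kg lay above all birds at 0.5 mg/kg, with replicate 3 falling among the lower dose. The log2 fold change was 0.80 (SE 0.28) at 0.5 mg/kg and 1.64 (SE 0.28) at 5 mg/kg, or 1.22 without 5 mg/kg replicate 2.

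SBNO2 reached most of its change at the lower dose. In solvent birds the lowest, median and highest levels were 17.9, 23.6 and 28.7 CPM. At 0.5 mg/kg the birds held 56.4, 62.1, 53.5, 25.4 and 96.3 CPM, so that replicate 4 stayed within the solvent range while replicate 5 passed 4 of the 5 birds of the higher dose. At 5 mg/kg they held 43.4, 150, 59.2, 70.9 and 82.6 CPM, all above solvent, and only replicate 2 lay above every 0.5 mg/kg bird. The log2 fold change was 1.35 (SE 0.30) at 0.5 mg/kg and 1.82 (SE 0.31) at 5 mg/kg. Of the log2 change from solvent to 5 mg/kg, 74.3% was already present at 0.5 mg/kg, so a grading from the lower to the higher dose rests on a difference of 0.47 (SE 0.32), which was 0.12 without 5 mg/kg replicate 2.

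SARM1 was the scarcest of the 5 genes and changed mostly between the doses. Solvent birds held 1.25 to 2.59 CPM with a median of 1.90, from 32 to 91 counts a library. The 0.5 mg/kg birds held 2.79, 4.75, 2.04, 2.06 and 4.44 CPM, and 2 of them lay inside the solvent range. The 5 mg/kg birds held 5.27, 16.6, 4.69, 6.85 and 26.4 CPM, led by replicate 5 and then replicate 2, and all lay above solvent. The log2 fold change was 0.73 (SE 0.43) at 0.5 mg/kg and 2.63 (SE 0.43) at 5 mg/kg, so that 27.9% of the change was present at the lower dose. Without replicate 5 the 5 mg/kg value was 2.12.

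LOC107305801 had the least spread at 5 mg/kg. Solvent birds ran from 5.64 to 18.4 CPM with a median of 9.45, the 0.5 mg/kg birds held 29.2, 24.3, 10.1, 23.3 and 13.8 CPM, and the 5 mg/kg birds 39.3, 43.1, 29.5, 45.5 and 45.6 CPM. All 5 birds of the higher dose lay above all birds of both other groups, though the lowest of them exceeded the highest 0.5 mg/kg bird by less than 1 CPM. The lower dose overlapped the solvent birds in 2 of 5 birds. Its log2 fold change was 0.99 (SE 0.29) at 0.5 mg/kg and 2.002 (SE 0.29) at 5 mg/kg, close to equal steps. The coefficient of variation at 5 mg/kg was 16.5% for LOC107305801, against 50.6% for SBNO2, 60.7% for SLC41A1, 72.5% for CHKA and 78.7% for SARM1.

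**Figure D1:**
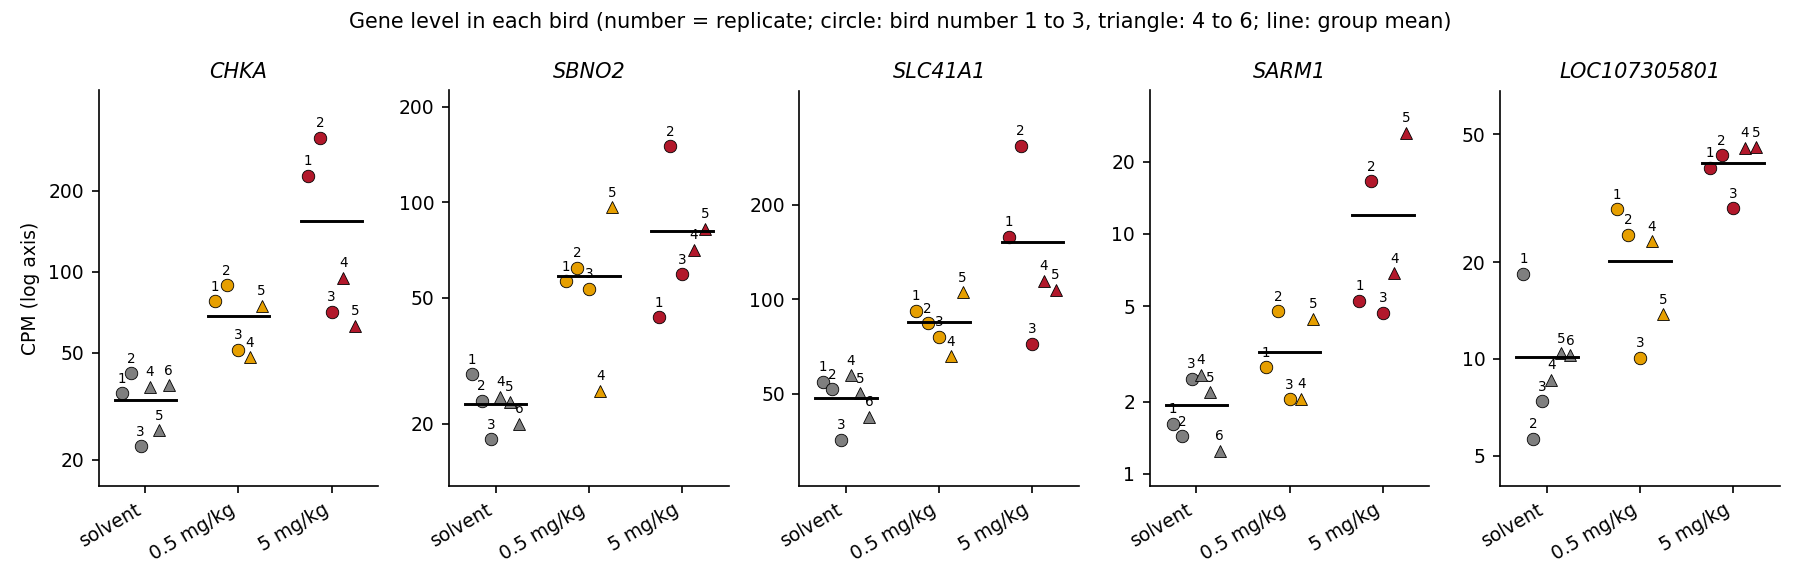
Level of each gene in each of the 16 birds, in CPM on a log axis, by dose group; numbers are replicates, circles are birds numbered 1 to 3 and triangles birds numbered 4 to 6 in the labels, and lines are group means. For all 5 genes the 5 mg/kg birds lie above the solvent birds, while the 0.5 mg/kg birds reach down into the solvent range for SBNO2, SARM1 and LOC107305801.

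Read against all genes, few did this in edgeR, and more were called by DESeq2. At 5 mg/kg the 5 genes were among 6 called higher by the quasi-likelihood test of edgeR at an adjusted threshold of 0.05, which is 0.0436% of the 13748 genes tested, and 0% were called lower. The other gene called was BBS2. At an unadjusted p under 0.05 in edgeR, 9.76% of genes differed in either direction. DESeq2 called 153 genes in the same comparison, 90 higher and 63 lower, and limma-voom called 2 higher. As the values behind the choice, and not as a test of these genes, the 4 with a symbol lay just inside the threshold at an adjusted p of 0.0472 in edgeR, and FBXO31 just outside it at 0.0653. That count of 6 fell to 0 in the fits without solvent replicate 3, 4, 5 or 6, to 1 without 5 mg/kg replicate 2 and to 3 without solvent replicate 1, and was 10 and 21 without 5 mg/kg replicates 3 and 4. All 5 birds at 5 mg/kg lay above all solvent birds for each of the 5 genes and for 0.553% of all genes, and all lay below for 0.415%. Group means were higher at each step of dose for all 5 genes and for 17.8% of all genes, so an order of means alone is common, and 0.473% of genes had both properties. All 0.5 mg/kg birds lay above all solvent birds for CHKA and SLC41A1 and for 0.902% of all genes. Both doses did so in full for CHKA, SLC41A1 and 0.0727% of all genes. All 5 mg/kg birds lay above all 0.5 mg/kg birds for LOC107305801 and for 0.64% of all genes. At 0.5 mg/kg against solvent, and at 5 against 0.5 mg/kg, 0% of genes passed edgeR's adjusted threshold, with 8.25% and 7.25% of genes at an unadjusted p under 0.05 and 31 and 26 genes called by DESeq2. Since the 5 genes were chosen on these contrasts, nothing is read from those shares, and the contrasts share birds.

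The transcript rows of a gene are numbered here in the order of the deposited table, which gives them no transcript name. Kallisto shares out reads among transcripts of a gene that overlap in sequence, so a row's value is an estimate and less certain than the gene sum. CHKA kept its proportions from solvent to 5 mg/kg. Its row 1 held 24.5 ± 6.24 CPM in solvent birds (SD, n = 6), 53.3 ± 13.1 CPM at 0.5 mg/kg (n = 5) and 108 ± 70.6 CPM at 5 mg/kg (n = 5). Row 2 held 9.02 ± 2.52, 14.9 ± 9.17 and 47.0 ± 41.7 CPM. The share of row 1 was 72.9 ± 5.51%, 78.8 ± 8.37% and 72.4 ± 5.47%, which moved by less than the spread between birds from solvent to 5 mg/kg. In both rows every 5 mg/kg bird lay above every solvent bird. Row 1 made up 83.0% of the gene's difference between solvent and 0.5 mg/kg, and 68.6% of that between solvent and 5 mg/kg. At 0.5 mg/kg all 5 birds lay above every solvent bird in row 1, and only 1 did in row 2.

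SLC41A1 was carried mostly by row 1, its row with the largest share. Row 1 held 34.9 ± 7.44 CPM in solvent birds, 62.3 ± 10.4 CPM at 0.5 mg/kg and 118 ± 76.0 CPM at 5 mg/kg, and made up 80.3% of the gene's difference between solvent and 5 mg/kg. Row 4 followed with 8.71 ± 3.16, 18.02 ± 7.48 and 22.9 ± 10.5 CPM, and every 5 mg/kg bird lay above every solvent bird there. In row 1, 4 birds at 5 mg/kg lay above every solvent bird. Row 2 held 1.95 ± 1.19, 2.53 ± 1.49 and 8.45 ± 6.73 CPM, with 3 birds at 5 mg/kg above every solvent bird. Row 3 went from 3.12 ± 2.68 CPM in solvent birds to 2.83 ± 1.99 CPM at 5 mg/kg, a difference within the spread of the birds.

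SBNO2 differed in that the row that dominated in solvent birds was not higher at 5 mg/kg. Whether this is a real change of transcript was not tested, because the rows are unnamed estimates. Row 5 held 70.1 ± 15.4% of SBNO2 in solvent birds. Its level was 15.8 ± 2.77 CPM there, 20.5 ± 3.99 CPM at 0.5 mg/kg and 13.7 ± 6.61 CPM at 5 mg/kg, and its mean share was 41.2 ± 22.8% and 21.5 ± 12.8% at those doses. At 5 mg/kg its lowest value, 3.99 CPM, was in replicate 2, the bird with the highest SBNO2 sum.

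Rows 7 and 9 held most of the difference between solvent and 5 mg/kg. They were singled out after their values were seen, as the rows with under 3 counts in at least 5 of 6 solvent birds. Their low solvent values and shares follow from that pick. Together they lay at 0 to 2.69 CPM in the solvent birds. At 0.5 mg/kg the birds held 21.6, 8.88, 17.99, 1.83 and 42.7 CPM in these rows, and at 5 mg/kg 11.3, 97.6, 23.9, 34.2 and 48.5 CPM. In the sum of these rows all 5 mg/kg birds and 4 of 5 birds at 0.5 mg/kg lay above all solvent birds. In row 7 and in row 9 taken singly, 4 birds at 5 mg/kg did so, and in row 8, which was not picked, 5 did. The mean share of rows 7 and 9 in SBNO2 was 3.37% in solvent birds, 27.5% at 0.5 mg/kg and 47.7% at 5 mg/kg. Row 7 made up 55.4% and row 9 17.3% of the gene's difference in CPM between solvent and 5 mg/kg, row 8 another 16.3% and row 5 -3.52%. Between solvent and 0.5 mg/kg the parts were 42.5% for row 7 and 7.37% for row 9, and row 5 held 13.3%. Row 7 had under 3 counts in 5 of 6 solvent birds, as did row 9, and at 5 mg/kg replicate 1 row 7 held only 0.596 CPM while row 9 held 10.7 CPM. The other 8 rows summed to 22.3 ± 3.78 CPM in solvent birds, 40.2 ± 13.03 CPM at 0.5 mg/kg and 38.1 ± 8.20 CPM at 5 mg/kg.

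**Figure D2:**
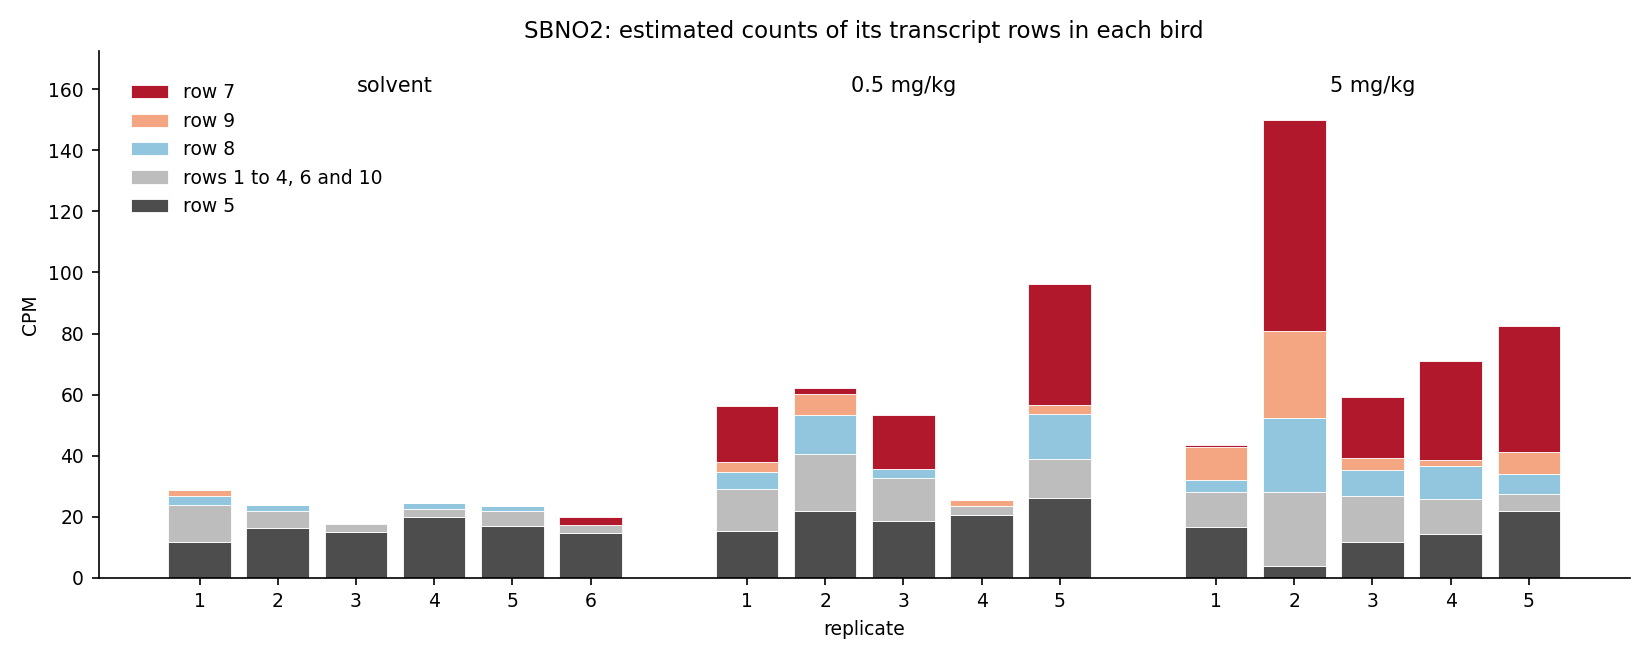
Estimated level of the SBNO2 transcript rows in each bird, stacked, in CPM, for 6 solvent birds, 5 birds at 0.5 mg/kg and 5 at 5 mg/kg. Row 5 (dark grey) makes up 40.7% to 83.0% of the solvent bars, and rows 7 and 9 (red and salmon) make up 26.1% to 65.0% of the bars at 5 mg/kg.

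Whether the genes vary together between birds of the same dose was not itself used to choose them, and it was tested. The test is not independent of the choice, because the spread within dose groups enters the edgeR test behind it. A bird high in several of the genes, such as 5 mg/kg replicate 2, counts in both. The permutation p-values take no account of the choice. Levels as log2 CPM were centred on the mean of each dose group, and the 10 pairs of genes were compared over the 16 birds by permuting birds within dose groups. CHKA and SLC41A1 varied together. Their Pearson r was 0.85 (two-sided permutation p = 0.0010, 0.010 after Benjamini-Hochberg adjustment over the 10 pairs) and their Spearman rho 0.76 (permutation p = 0.00556, adjusted 0.0278). Leaving out the 2 birds with the most extreme CHKA values, 5 mg/kg replicates 2 and 5, gave r = 0.81. Without 5 mg/kg replicate 2 alone r was 0.74 and its adjusted permutation p 0.132, and with birds centred within dose and number class as well r was 0.87 with an adjusted permutation p of 0.0738. In dosed birds alone r was 0.89 (adjusted permutation p = 0.0366), and in solvent birds alone 0.61 (adjusted exact permutation p = 0.619).

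SBNO2 and SARM1 passed the threshold by rho and not by r. For SBNO2 and SARM1 r was 0.60 (permutation p = 0.0451, adjusted 0.150), which missed the threshold, while rho was 0.75 (permutation p = 0.00504, adjusted 0.0278). Their r was 0.53 without 0.5 mg/kg replicate 4 and 5 mg/kg replicate 2, and -0.14 in solvent birds alone. For SBNO2 and SLC41A1 r was 0.64 (permutation p = 0.0255, adjusted 0.127) and dropped to 0.21 without 0.5 mg/kg replicate 4 and 5 mg/kg replicate 2. For SBNO2 and CHKA r was 0.38 (permutation p = 0.269, adjusted 0.619). Without 5 mg/kg replicate 1, where CHKA was high and SBNO2 lowest of its group, r was 0.80 for SBNO2 with SLC41A1 (adjusted permutation p = 0.0006) and 0.68 for SBNO2 with CHKA (adjusted permutation p = 0.0452). These were the highest values with 1 bird left out, and the lowest were 0.39 for SBNO2 with SLC41A1 and 0.03 for SBNO2 with CHKA. CHKA and SARM1 gave an r of 0.03. LOC107305801 had an r of 0.02 to 0.17 with the other 4 genes, none past the threshold in these permutations. Across all genes, 4 of 13747 had a higher r with CHKA than SLC41A1 had, and 7 had a higher r with SLC41A1 than CHKA had.

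**Figure D3:**
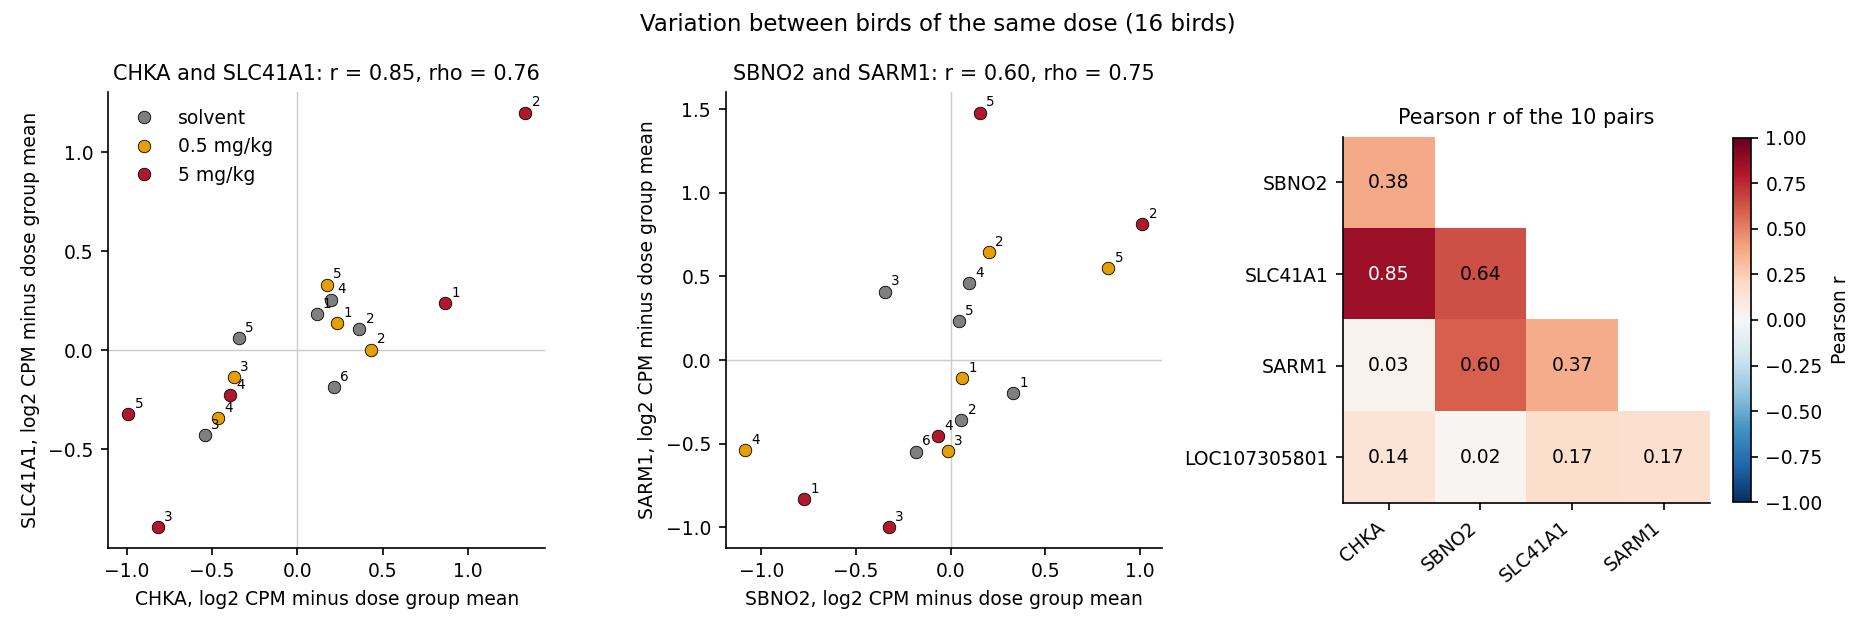
Log2 CPM minus the mean of the bird's dose group for CHKA against SLC41A1 and SBNO2 against SARM1 in 16 birds (numbers are replicates), and Pearson r of all 10 pairs of the 5 genes. CHKA and SLC41A1 give the highest r, 0.85, and LOC107305801 gives 0.02 to 0.17 with the others.

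Genes whose levels followed each member most closely within dose groups are named as a description over the same 16 birds, with no test. For CHKA they were NCEH1, a neutral cholesterol ester hydrolase (r = 0.90), ABHD2, a serine hydrolase (0.89), and LARP4, an RNA-binding protein (0.87). For SLC41A1 they were LARP4 (r = 0.90), RAB11FIP1, an effector of recycling endosomes (0.89), and MINDY4, a deubiquitinase family member (0.86). For SBNO2 they were UBE2W, a ubiquitin-conjugating enzyme (r = 0.88), REXO4 (0.85) and PIK3CB, a catalytic subunit of phosphoinositide 3-kinase (0.85). For SARM1 they were GOLT1B, a Golgi transport protein (r = 0.91), HEYL, a Notch target (0.86), and ITPKB, an inositol trisphosphate kinase (0.83). For LOC107305801 they were PM20D2 (r = 0.86), SSU72, a phosphatase of RNA polymerase II (0.84), and KRR1, a ribosome biogenesis factor (0.84).

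Of these genes and those named next, 20 in all, 0 were called at 5 mg/kg in edgeR. Outside the members edgeR called only BBS2 there. At an unadjusted p under 0.05 in edgeR were 8 of the 20, or 40% against 9.76% of all genes. DESeq2 called CREB3L2 higher and SSU72 lower, or 10% against 1.04% of all genes. The cause of this excess was not tested. LARP4 lay at 88.3 ± 5.75 CPM in solvent birds (n = 6) and 93.2 ± 29.2 CPM at 5 mg/kg (n = 5), a log2 fold change of 0.08 (SE 0.16, adjusted p = 0.898 in edgeR). GOLT1B had a log2 fold change of -0.11 (SE 0.16, adjusted p = 0.846 in edgeR). ITPKB went from 19.7 ± 5.65 to 42.3 ± 25.1 CPM, a log2 fold change of 1.10 (SE 0.37) that did not pass (adjusted p = 0.327 in edgeR). Over the 4 members with a symbol, the mean r was highest for DDT, D-dopachrome tautomerase (0.69), RAB11FIP1 (0.68), UBE2W (0.68), CREB3L2 (0.68), PTPN1 (0.67) and MINDY4 (0.66). CREB3L2, a transcription factor of the secretory pathway, went from 124 ± 12.9 CPM in solvent birds to 181 ± 37.2 CPM at 0.5 mg/kg and 243 ± 106 CPM at 5 mg/kg, with a log2 fold change of 0.97 at the higher dose (SE 0.21, adjusted p = 0.102 in edgeR). The mean r was lowest for PLEKHA5 (-0.64), MAP4, a microtubule-associated protein (-0.63), and GPX1, a glutathione peroxidase (-0.60).

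The labels number birds within each dose, and Z-linked genes split by that number, so the 5 genes were compared between birds numbered 4 to 6 and birds numbered 1 to 3, with dose in the model. In birds, males carry a pair of Z chromosomes and females a single one. Of 613 Z-linked genes, 152 were called lower and 1 was called higher in numbers 4 to 6, and their median log2 difference was -0.46. Over all genes 1.17% were called lower and 0.0727% higher, and 9.57% had an unadjusted p under 0.05. None of the 5 genes was called. LOC107305801, the Z-linked member, had a log2 difference of -0.01 (SE 0.25, adjusted p = 0.997 in edgeR), and 85.0% of Z-linked genes lay below it. CHKA had -0.47 (SE 0.30, adjusted p = 0.692), SLC41A1 -0.17 (SE 0.24, adjusted p = 0.888), SBNO2 -0.03 (SE 0.26, adjusted p = 0.983) and SARM1 0.37 (SE 0.35, adjusted p = 0.811) in the same edgeR test. With SEs of 0.24 to 0.35, differences of the size of the Z-linked median could not be told from 0.

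**Figure D4:**
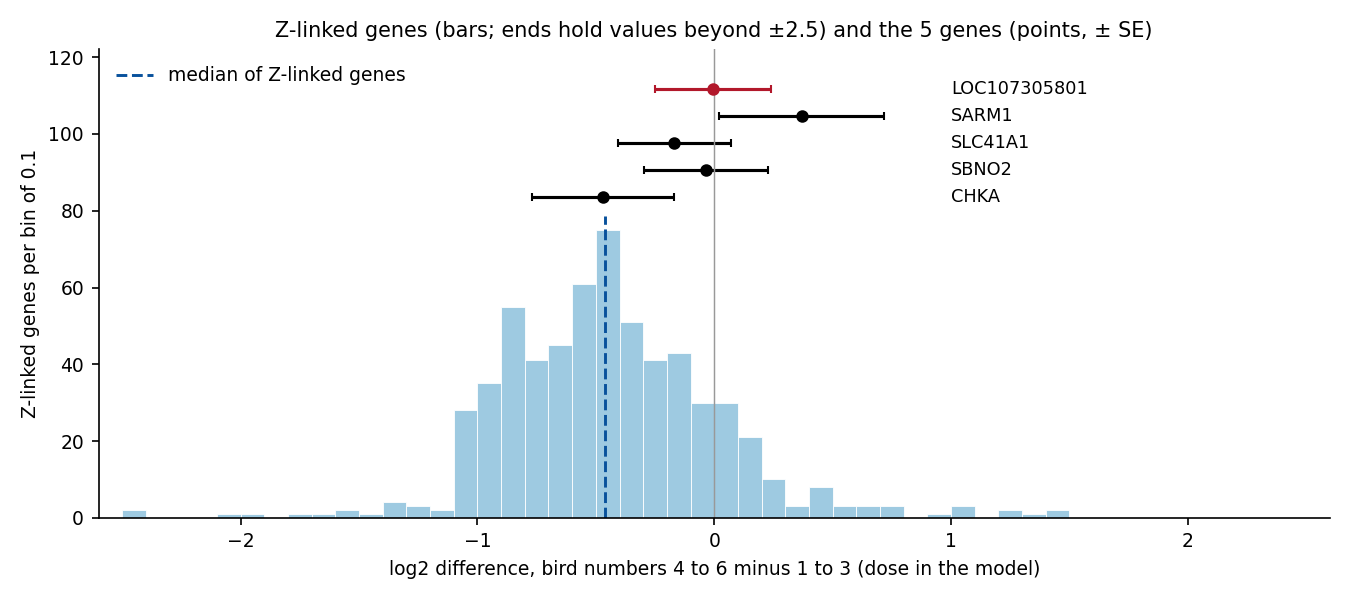
Log2 difference between birds numbered 4 to 6 and birds numbered 1 to 3 for 613 Z-linked genes (bars, genes per bin; dashed line, their median of -0.46) and for the 5 genes (points, ± SE, placed above the bars in arbitrary rows). LOC107305801 lies at -0.01, above 85.0% of the Z-linked genes.

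The difference of the 5 mg/kg effect between the number classes was tested as an interaction, for which 0% of genes were called in edgeR and 4.15% had an unadjusted p under 0.05, against 0% and 3.02% for the 0.5 mg/kg effect. CHKA had the largest value of the 5 genes, -1.39 (SE 0.65, adjusted p = 0.990 in edgeR). In solvent birds CHKA averaged 33.3 CPM in numbers 1 to 3 (n = 3) and 33.7 CPM in numbers 4 to 6 (n = 3), while at 5 mg/kg it averaged 205 CPM (n = 3) and 79.1 CPM (n = 2). SLC41A1 at 5 mg/kg averaged 180 and 111 CPM, and its interaction was -0.77 (SE 0.57). SARM1 went the other way, with 8.85 and 16.6 CPM at 5 mg/kg and an interaction of 0.77 (SE 0.86). SBNO2 (-0.08, SE 0.67) and LOC107305801 (0.39, SE 0.62) had smaller values. Within numbers 4 to 6 alone the log2 fold change at 5 mg/kg was 1.22 for CHKA and 1.14 for SLC41A1.

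Of the other genes in the pathways around the members, 0 were called in edgeR or limma-voom at 5 mg/kg. Outside the members edgeR called only BBS2, and limma-voom called 2 genes in all. These zeros were nearly fixed in advance, so nothing is read from them. In each list the member is left out, values are log2 fold changes at 5 mg/kg against solvent, and 49.8% of all 13748 genes lay above 0 with a median of -0.0017. The 5 lists, in the order given below, had 13%, 16%, 18.8%, 0% and 20% of genes at an unadjusted p under 0.05 in edgeR. Over all genes that share was 9.76%. Of 23 genes of phosphatidylcholine and phosphatidylethanolamine synthesis, 13 lay above 0 and 10 below (median 0.06), and 3 had an unadjusted p under 0.05. Those with the lowest p were LPCAT3, which remodels phosphatidylcholine (0.69, SE 0.24), SELENOI, an ethanolamine phosphotransferase (0.67, SE 0.30), and ETNK2, an ethanolamine kinase (-0.43, SE 0.20), with adjusted p of 0.342, 0.494 and 0.499 in edgeR. LPCAT3 went from 60.7 ± 16.8 CPM in solvent birds to 85.7 ± 31.2 CPM at 0.5 mg/kg and 98.1 ± 21.3 CPM at 5 mg/kg.

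Around SBNO2, 15 of 25 genes of interleukin-10, interleukin-6 and STAT3 signalling lay above 0 and 10 below (median 0.09, or -0.018 without 5 mg/kg replicate 2), and 4 had an unadjusted p under 0.05. STAT3, the transcription factor of the pathway, went from 202 ± 44.9 CPM in solvent birds to 268 ± 40.2 CPM at 0.5 mg/kg and 352 ± 87.6 CPM at 5 mg/kg, a log2 fold change of 0.80 (SE 0.18, adjusted p = 0.126 in edgeR), and it was the 1 gene of these pathways that DESeq2 called. IL11RA had -0.90 (SE 0.31) and MCL1, an apoptosis inhibitor, -0.38 (SE 0.15), with adjusted p of 0.335 and 0.378 in edgeR. Around SLC41A1, 13 of 16 magnesium transport genes lay above 0 and 3 below (median 0.10), and 3 had an unadjusted p under 0.05. NIPAL4 went from 12.9 ± 5.56 to 26.1 ± 9.92 CPM (1.01, SE 0.34), the paralog SLC41A2 from 15.8 ± 3.45 to 21.6 ± 3.42 CPM (0.45, SE 0.15), and TRPM7, a channel kinase that carries magnesium, from 70.3 ± 8.60 to 50.2 ± 16.2 CPM (-0.49, SE 0.18). Their adjusted p in edgeR were 0.327, 0.329 and 0.374.

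Around SARM1, 10 of 25 genes of NAD metabolism lay above 0 and 15 below (median -0.04), and 0 had an unadjusted p under 0.05. NAMPT, which makes the NAD precursor nicotinamide mononucleotide, had -0.65 (SE 0.32), SIRT5, an NAD-dependent deacylase, -0.34 (SE 0.17), and ACMSD, which diverts tryptophan carbon from NAD synthesis, -0.90 (SE 0.49), with adjusted p of 0.524, 0.534 and 0.565 in edgeR. Of 10 Toll-like receptors and their signalling partners, 5 lay above 0 and 5 below (median 0.0033), and 2 had an unadjusted p under 0.05, with TLR5 at 0.73 (SE 0.27), TLR7 at -0.67 (SE 0.31) and IRAK4 at 0.29 (SE 0.22). At 0.5 mg/kg, which shares the solvent birds, the medians of the 5 lists were -0.11, 0.10, 0.07, 0.15 and -0.16 in the order given, against an all-gene median of -0.02, with 0 genes called in edgeR and CEBPD and MYC called by DESeq2.

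**Figure D5:**
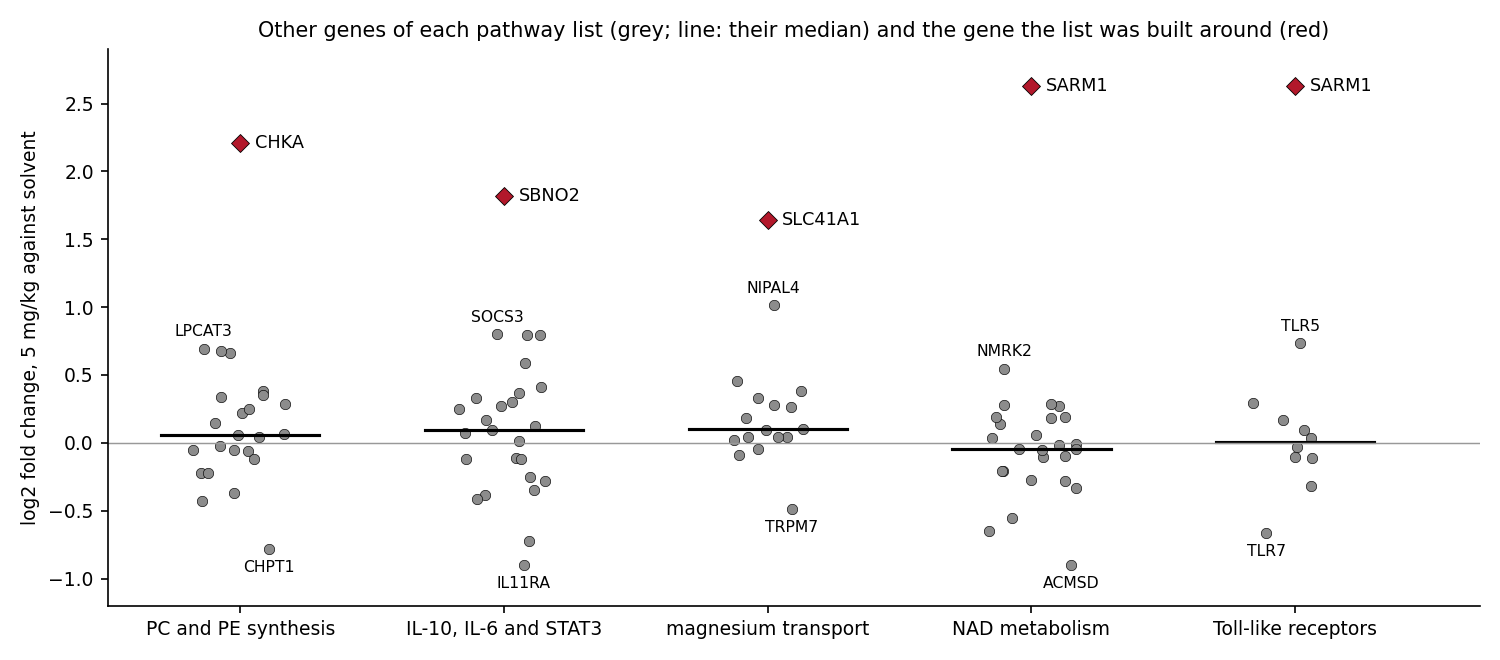
Log2 fold change at 5 mg/kg against solvent of the genes in 5 pathway lists (grey points, line at their median, highest and lowest gene named) and of the member that each list belongs to (red diamonds). The members were chosen on this fold change, which places them high in the plot, and the medians of the lists lie between -0.04 and 0.10.

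Markers of other cell types and further gene lists were read as well. Of the 242 genes in all lists, 0 were called at either dose in edgeR, with 36 at 5 mg/kg and 34 at 0.5 mg/kg at an unadjusted p under 0.05, which is 14.9% and 14% of them against 9.76% and 8.25% of all genes. DESeq2 called 11 and 4 of them, or 4.51% and 1.67% of those it gave an adjusted p, against 1.04% and 0.233% of all genes. The lists were chosen with earlier results known, so nothing is read from the excess. The zeros in edgeR are not read either. Outside the members it called only BBS2 at 5 mg/kg, and 0% of genes at 0.5 mg/kg. At 5 mg/kg, 12 of 15 hepatocyte markers lay above 0 (median 0.24), while 0 of 12 macrophage markers (-0.40), 1 of 8 lymphocyte markers (-1.10), 1 of 17 liver endothelium markers (-0.26) and 0 of 6 erythroid markers (-0.56) did. At 0.5 mg/kg the hepatocyte (13 of 15, median 0.27), macrophage (1 of 12, -0.30), lymphocyte (1 of 8, -0.69) and endothelium markers (2 of 17, -0.22) lay to the same side, while 6 of 6 erythroid markers lay above 0 (0.25). The macrophage markers summed to 477 to 1328 CPM in solvent birds, 339 to 777 CPM at 0.5 mg/kg and 428 to 567 CPM at 5 mg/kg, with median sums of 540, 470 and 476 CPM. Their median log2 fold change at 5 mg/kg ranged from -0.53 to -0.13 with 1 library left out at a time. By the mean centred log2 CPM of the list, solvent replicate 1 was the highest solvent bird for macrophage and for lymphocyte markers. The lymphocyte markers summed to 14.9 to 73.0, 15.4 to 35.6 and 15.5 to 33.4 CPM, with RAG1 at 0 in all birds and PAX5 in some. Their median sums were 18.7, 22.3 and 19.0 CPM, so the sums showed no drop in the median bird. The sums include IL7R, the 1 tested marker above 0, with log2 fold changes of 0.98 at 5 mg/kg and 1.10 at 0.5 mg/kg. IL7R averaged 8.27 CPM at 5 mg/kg, so a flat sum does not show that the other markers kept their level. The other 7 tested markers lay below 0 at both doses. With 1 library left out at a time, the lymphocyte median log2 fold change ranged from -1.49 to -0.42 at 5 mg/kg. At 0.5 mg/kg it ranged from -1.03 to 0.04. The endothelium markers summed to 194 to 276, 183 to 246 and 128 to 255 CPM, and the erythroid markers to 158 to 487, 133 to 690 and 71.8 to 575 CPM. In whole liver, fewer cells of a type and less RNA per cell cannot be told apart. Stellate cell markers had 9 of 15 above 0 (0.11), cholangiocyte markers 3 of 7 (-0.27, with CFTR and SCTR at 0 in some birds) and adipocyte markers 2 of 5 (-0.10) at 5 mg/kg, and 7 (-0.10), 0 (-0.56) and 2 (-0.12) at 0.5 mg/kg. The part of these shifts in the levels of the 5 genes was not tested between doses.

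Within dose groups, 5 members were set against the 17 list scores and 3 library measures, which are 100 relations, and 0 passed Benjamini-Hochberg adjustment. The lowest p belonged to SBNO2, with the Toll-like receptor list (r = 0.46, rho = 0.59, permutation p = 0.0008, adjusted 0.0800) and with the interleukin and STAT3 list (r = 0.66, rho = 0.69, permutation p = 0.00295, adjusted 0.147). Library depth had an r of 0.49 with CHKA and 0.54 with SLC41A1 (permutation p = 0.211 and 0.137, both adjusted to 0.701), and -0.40 with LOC107305801 (permutation p = 0.0782, adjusted 0.701). The bird highest in CHKA, SLC41A1 and SBNO2 was also the deepest library.

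Of the remaining lists, the fasting response had 13 of 20 genes above 0 at 5 mg/kg (median 0.14), glucocorticoid-induced genes 7 of 17 (-0.16) and the cell cycle 16 of 19 (0.52, or -0.06 without 5 mg/kg replicate 1). Estrogen receptors and estrogen-induced genes had 7 of 14 above 0 (0.02), and 1 higher and 3 lower at an unadjusted p under 0.05 in edgeR. In this order the lists had 15%, 11.8%, 15.8% and 28.6% of genes at such a p, against 9.76% of all genes. DESeq2 called SIK1 (2.02), IRS2 (0.69) and RRM1 (1.03) higher, and STC2 (-1.87), GREB1 (-0.75), KLF15 (-1.07) and ERRFI1 (-0.88) lower. In the 0.5 mg/kg comparison the fasting response had 15 above 0 (0.45), glucocorticoid-induced genes 8 (-0.05), the cell cycle 8 (-0.18) and the estrogen list 7 (0.15). ESR1, which encodes estrogen receptor alpha, lay at 51.2 ± 18.5 CPM in solvent birds, 67.9 ± 10.2 CPM at 0.5 mg/kg and 56.0 ± 21.8 CPM at 5 mg/kg. ESR2 lay at 35.1 ± 22.5, 94.3 ± 21.2 and 33.7 ± 21.8 CPM, with a log2 fold change of 1.42 at 0.5 mg/kg (SE 0.45, adjusted p = 0.473 in edgeR).

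No paralog and no neighbour of the members was called at 5 mg/kg. In edgeR this was nearly fixed in advance, because BBS2 was the only gene it called outside the members. SBNO1, the paralog of SBNO2, had a log2 fold change of -0.12 at 5 mg/kg (SE 0.14) and SLC41A3 one of 0.27 (SE 0.18), with adjusted p of 0.805 and 0.655 in edgeR. SLC41A2, given above, had 0.45 (SE 0.15), with an unadjusted p of 0.00886 and an adjusted p of 0.329 in edgeR. CHKB was not tested. Of the 20 nearest genes, 2 on either side of each member, 15 were tested and 0 called in edgeR or DESeq2. At an unadjusted p under 0.05 in edgeR were 3 of the 15, or 20% against 9.76% of all genes. Next to CHKA, KMT5B had a log2 fold change of 0.05 (SE 0.12), C5H11orf24 of 0.31 (SE 0.22) and RNH1 of 0.40 (SE 0.17). Next to SBNO2, GPX4 had 0.13 (SE 0.24) and POLR2E 0.02 (SE 0.09). On its other side the table places the long noncoding RNAs LOC107325487 and LOC107325489, which overlap SBNO2 and had at most 7 and 5 counts in any bird.

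Next to SLC41A1, RAB29 had 0.28 (SE 0.13), NUCKS1 0.23 (SE 0.14), PM20D1 -0.44 (SE 0.46) and RHEX -1.45 (SE 0.74). SARM1 lies beside VTN, the plasma protein vitronectin, which had 4501 ± 1011 CPM in solvent birds and 5181 ± 742 CPM at 5 mg/kg (log2 fold change 0.20, SE 0.19). SLC46A1, on the other side of SARM1, had 0.47 (SE 0.25), KIF12 had -0.08 (SE 0.32), and SLC13A2 went from 0.150 ± 0.236 to 0.939 ± 0.610 CPM (2.53, SE 0.94, adjusted p = 0.366 in edgeR). Next to LOC107305801, GBA2 had -0.13 (SE 0.17) and RGP1 0.19 (SE 0.29). On its other side LOC107305802 and the long noncoding RNA LOC107305803 were not tested, with at most 1 and 144 counts in any bird. No source used here states the strandedness of the libraries, so reads of overlapping genes could not be assigned by strand.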

How the data were processed

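The deposited table holds the authors' estimated counts per transcript, and kallisto is the tool that the submitters' processing notes name. The sources used here give no version, transcriptome or genome build. Its 47418 rows carry NCBI gene numbers and were summed to 20308 genes and rounded, which moved a count by at most 0.5. Names and chromosomes came from the RefSeq gene table of Coturnix japonica 2.1, where 18900 genes matched, and no coordinates are given. All 16 columns matched 1 sample each by name, and 0 were left unused.

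Tests used edgeR 4.0.16, with limma 3.58.1, under R 4.3.3. filterByExpr (minimum count 10, minimum total 15) kept 13748 genes, TMM scaled the libraries, and 3 dose groups were fitted to all 16 libraries by quasi-likelihood with 13 residual degrees of freedom. The biological coefficient of variation was 35.4%. P-values were adjusted by the Benjamini-Hochberg method over all genes of a comparison, with a threshold of 0.05. The number class model (bird numbers 4 to 6 against 1 to 3, from the labels) kept 12 and the interaction model 10 residual degrees of freedom. Correlations used log2 CPM with a prior count of 2, centred within dose groups, and 100000 permutations of birds within groups, in Python 3.11.15 with numpy 2.4.6. A list score is the mean of its genes' centred log2 CPM. DESeq2 1.42.0 and limma-voom were alternatives. The edgeR model with dose and number class and the permutation test were tried on simulated data, and the other models were not. Within a dose group the labels tell the birds apart only by their numbers. The p-values measure the spread between these samples.

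The members, the gene lists and the tests were chosen with earlier results of these data known. Named genes were the members, for each member the 3 genes with a symbol and a mean of at least 1 CPM that had the highest r with it, the 6 highest and 3 lowest in mean r over the 4 members with a symbol, the 3 genes of lowest p in each pathway list, the paralogs, the 2 genes on either side and ESR1 and ESR2. BBS2, FBXO31, the genes that DESeq2 called, IL7R, RAG1, PAX5, CFTR and SCTR were named after their values were seen. Depth limits precision most for SARM1, which had 32 to 732 counts a library.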

Additional observations from a re-analysis of the deposited data

Results flagged for a closer look

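In groups of 4 to 10 birds, a bird was marked when its gap to the nearest other bird exceeded Dixon's critical share of the range. Among 42 groups of values, of genes and of transcript rows, 4 held such a bird, where chance gives about 1 in 20. That rate is no guide for rows near 0 counts in most birds, where a single bird with counts can be marked. SBNO2 row 3 at 0.5 mg/kg, with 2.33 CPM in replicate 5 and 0 in the other birds, was not among those marked. CHKA row 2 reached 31.1 CPM in 0.5 mg/kg replicate 2, far above the other 4 birds of that dose. SLC41A1 row 2 reached 5.13 CPM in 0.5 mg/kg replicate 5. SBNO2 row 7 was at 2.69 CPM in solvent replicate 6 and SBNO2 row 9 at 1.93 CPM in solvent replicate 1, where the other 5 solvent birds had under 3 counts in the row. The sums of all rows of CHKA, SLC41A1 and SBNO2 had no such bird in any dose group.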

How the results depend on the processing

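For 5 mg/kg against solvent, 6 genes were called, 153 with DESeq2 (90 higher, 63 lower), 2 with limma-voom, 2 with the replicate number as a block, 1 with the bird number as a block (chosen after seeing the data), 3 with number class as a covariate, 0 with only those 2 groups in the fit, 0 within bird numbers 1 to 3, 1 within 4 to 6, and 3 without both solvent replicate 1 and 5 mg/kg replicate 2 (chosen after seeing the data). For 0.5 mg/kg against solvent, DESeq2 called 31, the fit of 2 groups 6 and the fit without both birds 1. For 5 against 0.5 mg/kg DESeq2 called 26, and for bird numbers 320. The labels number birds by replicate and, in brackets, by bird, which differ for 5 mg/kg replicates 4 and 5 (birds 5 and 6). Deviations of same-numbered birds of different doses correlated at -0.08 to 0.20 under both numberings, with 2 of 15 replicate pairs and 1 of 14 bird pairs above 0.1, so neither was taken to pair the birds. In the test of number class no block by replicate or bird number could be fitted, because each number falls in 1 class. Within numbers 4 to 6 the log2 fold change was 1.22 for CHKA and 1.14 for SLC41A1 against solvent, and 0.35 for CHKA between doses. With limma-voom the class difference of LOC107305801 was 0.11. The pairs of members past the threshold numbered 1, 2 under the block by bird number, and 0 when centred by number class, in solvent birds alone and without both birds, where the r of CHKA with SLC41A1 was 0.87, 0.61 and 0.75. The r turned negative for CHKA with SARM1 in solvent birds (-0.63) and without both birds (-0.25), for CHKA with LOC107305801 under the replicate block (-0.44) and in solvent birds (-0.014), and for SBNO2 with LOC107305801 in dosed birds (-0.11) and without both birds (-0.17). It also did so in solvent birds for SBNO2 with SARM1 (-0.14), SLC41A1 with SARM1 (-0.030) and SARM1 with LOC107305801 (-0.14), and under the replicate block for SLC41A1 with LOC107305801 (-0.22). Under the block by bird number it did so for CHKA with SARM1 (-0.10), CHKA with LOC107305801 (-0.35) and SLC41A1 with LOC107305801 (-0.21).

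With 1 library left out at a time, calls ranged from 0 to 21 for 5 mg/kg against solvent, 0 to 1 for 0.5 mg/kg, 0 to 2 between doses, 130 to 171 for number class and 0 to 1 for the interaction with 5 mg/kg. List genes called at 5 mg/kg numbered 0 to 1, pairs of members 0 to 3 and relations with lists 0 to 1. Number class differences ranged from -0.29 to 0.16 for SBNO2, -0.28 to 0.024 for SLC41A1, -0.0087 to 0.56 for SARM1 and -0.10 to 0.23 for LOC107305801. Interactions at 5 mg/kg ranged from -0.40 to 0.63 for SBNO2, -0.51 to 1.60 for SARM1 and -0.30 to 0.68 for LOC107305801, and at 0.5 mg/kg from -0.62 to 0.021 for CHKA, -1.12 to 0.80 for SBNO2, -0.42 to 0.25 for SLC41A1, -0.76 to 0.35 for SARM1 and -0.78 to 0.24 for LOC107305801. The r ranged from 0.74 to 0.88 for CHKA with SLC41A1, -0.25 to 0.47 for CHKA with SARM1 and -0.10 to 0.17 for SBNO2 with LOC107305801. The cause of these changes was not tested. Of the other values, 941 with 1 library left out and 335 under other alternatives were labelled unchanged. For fold changes between doses this meant the same direction and a move of less than the SD between birds of a dose. For counts of calls it meant a count within a set factor of the main one. For neither was the side of the threshold part of the label, so it says nothing on whether a member stayed past it.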
